A study of Mus musculus with 4 samples.

Results

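Semaphorins, plexins and neuropilins were described in cultured mouse 4T1 mammary carcinoma cells with a short hairpin RNA against Ldha (shLDHA) and with a scrambled hairpin (scramble). The members were the genes whose symbol starts with Sema and a digit or with Plxn, together with Nrp1 and Nrp2. They came to 32 of the 22180 genes tested, namely 20 semaphorins, 9 plexins, 2 neuropilins and Plxna4os1, a long noncoding RNA gene whose symbol falls under the rule. The 32 genes had 34 probe sets, since Plxna1 and Plxnb1 had 2 each.

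The shLDHA group held 2 arrays and the scramble group held 2 arrays, each from 400 ng of total RNA of cells kept for 24 hours in complete medium. Cells with the Ldha hairpin were selected with puromycin at 10 µg/ml and mixed, so that they form a pool and not a clone. Selection of the scramble cells is not stated in the labels, so selection and the hairpin cannot be told apart. Whether the 2 replicates of a group were grown as separate cultures is not stated either. The spread behind the p-values is therefore one between arrays and may be technical, and with 2 arrays a group the precision is limited.

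Semaphorins are secreted or membrane-bound guidance proteins that steer axons, vessels and migrating cells. Plexins are their main receptors and act inside the cell as GTPase-activating proteins for small GTPases of the Ras family. Neuropilins have short cytoplasmic tails and serve as co-receptors, with plexins for secreted class 3 semaphorins and with VEGF receptors for VEGF. In carcinomas, members of all 3 families are known for effects on migration, invasion, vessels and immune cells.

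Ldha, the targeted transcript, read 6.31 and 6.15 on the shLDHA arrays and 6.69 and 6.96 on the scramble arrays, on the log2 scale on which all levels here are given. Its log2 change (shLDHA minus scramble) was -0.59 (SE 0.12), with an adjusted p of 0.0390 by limma's moderated test over all genes, and it was lower on both shLDHA arrays. That call was lost without shLDHA replicate 1 (adjusted p = 0.0965), shLDHA replicate 2 (0.163) or scramble replicate 2 (0.128). Of 8 epithelial markers all 8 lay above a background level of 4.24, the level below which 95% of 1105 olfactory receptor genes fell in their brighter group. Of these 8, Epcam (log2 change 0.53) and Krt8 (0.47) were higher and Cldn7 (-1.06) and Cldn3 (-0.97) lower in shLDHA past the threshold, and 4 did not pass; Epcam and Krt8 lost the call with any array left out. All 8 endothelial markers were at or below it, as were 7 of 8 leukocyte, 7 of 8 fibroblast and 7 of 8 neuronal markers. The leukocyte marker above it, Cd68, changed by -0.91 (adjusted p = 0.00516), and the summed linear signal of the leukocyte markers was 154.5 and 165.7 on the shLDHA arrays and 235.5 and 241.1 on the scramble arrays. Without Cd68 the sum was 66.9 and 65.6 in shLDHA and 61.5 and 62.5 in scramble, and of the 8 leukocyte markers 4 had positive and 4 negative log2 changes. The part of these marker changes in the results below was not tested.

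Of the 32 members, 7 (21.9%) passed the threshold of a Benjamini-Hochberg adjusted p under 0.05, against a background of 6.36% of all genes tested. The members were chosen with earlier results of these data known, so these shares are a description only. Sema4c, Sema4d and Nrp1 were higher in shLDHA, where 3.37% of all genes were, and Sema7a, Sema6d, Plxna4 and Nrp2 were lower, where 2.99% of all genes were. The median log2 change of the 32 members was 0.01 and that of all genes was 0.01, with 18 members changed in the positive and 14 in the negative direction. Above the background level lay 18 of the 32 members, or 56.2%, and 48.5% of all genes. In 19 of the 32 members both arrays of one group lay beyond both of the other, a pattern that 50.3% of all genes had, and the members' share is close to that background. In these bulk samples a change in RNA per cell and a change in the share of cells that make a transcript cannot be told apart.

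**Figure D1:**
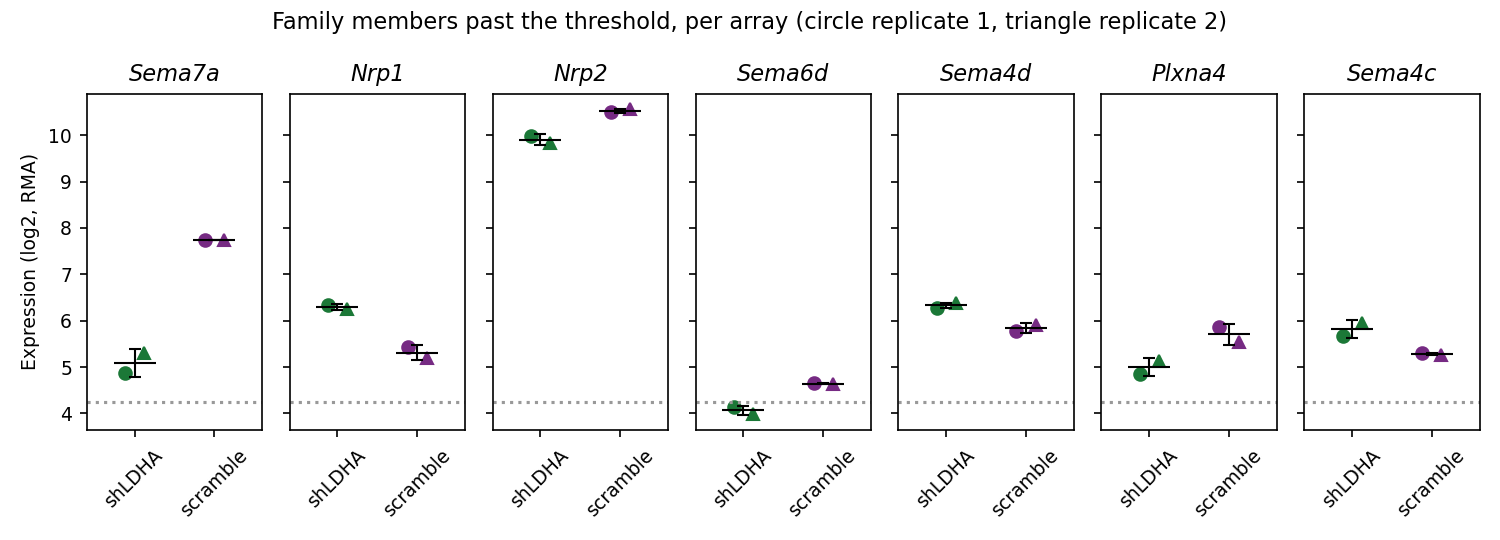
Log2 expression (RMA) of the 7 members past the threshold on each array, with shLDHA left of scramble; circles are replicate 1, triangles replicate 2, and black bars the mean and SD of 2 arrays. The dotted line is the background level of 4.24. In each of the 7 genes both arrays of one group lie beyond both of the other, as in 50.3% of all genes, with Sema7a furthest apart. The 7 were chosen by the threshold on these same values, so the separation adds no support.

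Sema7a showed the largest change among the members. It encodes the only class 7 semaphorin, which is held at the cell surface by a lipid anchor and binds plexin C1 and beta 1 integrins. It read 4.88 and 5.30 on the shLDHA arrays and 7.73 and 7.73 on the scramble arrays. Both shLDHA arrays lay more than 2 units below both scramble arrays, and the shLDHA arrays differed from each other more than the scramble arrays did. The means were 5.09 ± 0.30 in shLDHA and 7.73 ± 0.0003 in scramble (SD, n = 2 each), a log2 change of -2.64 (SE 0.14, 95% interval -2.98 to -2.30), or 6.23-fold lower (limma adjusted p = 0.000597). The call held in 13 of 13 alternative settings, with log2 changes between -2.85 and -2.43.

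The transcripts of its receptors did not pass. Plxnc1, the plexin C1 gene, read 2.92 and 3.01 in shLDHA and 3.01 and 3.21 in scramble, all below the background level, where a fall would be hard to detect. Itgb1, the integrin beta 1 gene, read 11.07 and 10.93 in shLDHA and 11.38 and 11.32 in scramble (log2 change -0.35, 95% interval -0.57 to -0.13, adjusted p = 0.0814). Itga1, an alpha subunit that pairs with it, changed by 0.33 (95% interval 0.12 to 0.55, adjusted p = 0.0845).

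The neuropilin genes changed in opposite directions. Nrp1, co-receptor for semaphorin 3A and for VEGF, read 6.34 and 6.25 on the shLDHA arrays and 5.43 and 5.20 on the scramble arrays, with no overlap. It rose by 0.98 (SE 0.11, 95% interval 0.73 to 1.24), or 1.98-fold (limma adjusted p = 0.00533). Nrp2, co-receptor for semaphorin 3F and for VEGF-C, read 9.98 and 9.82 in shLDHA and 10.50 and 10.56 in scramble, again with no overlap. It fell by 0.62 on the log2 scale (SE 0.09, 95% interval -0.85 to -0.40), 1.54-fold lower (adjusted p = 0.0161). The difference between the 2 genes on the same array thereby shifted by 1.61 log2 units towards Nrp1. Over the 4 pairings of an shLDHA with a scramble array the shift ran from 1.43 to 1.79. Neither gene's groups overlapped on these same values, so the direction was fixed in every pairing and adds no support. Nrp2 still read above Nrp1 in shLDHA, with means of 9.90 and 6.30.

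The promoters of Sema7a, which had the largest change, and of the 2 neuropilin genes, which moved apart, are shown for reference as the 250 bases before the RefSeq start site. They come from RefSeq, build GRCm38.p6, and all 3 lie on the plus strand, Sema7a at chr9:57939862-57940111, Nrp1 at chr8:128358823-128359072 and Nrp2 at chr1:62703067-62703316. Each is written 5′ to 3′, and capitals mark matches to any of 5 motifs searched on both strands: the NF-kB motif, the AP-1 motif TGANTCA, the hypoxia response cores ACGTG and GCGTG, and the GC box GGGCGG.
Sema7a: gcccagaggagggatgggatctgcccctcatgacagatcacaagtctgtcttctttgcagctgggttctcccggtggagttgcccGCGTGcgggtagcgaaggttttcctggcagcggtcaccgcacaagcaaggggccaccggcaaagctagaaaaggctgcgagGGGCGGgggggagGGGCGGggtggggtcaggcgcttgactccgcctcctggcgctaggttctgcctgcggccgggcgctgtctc
Nrp1: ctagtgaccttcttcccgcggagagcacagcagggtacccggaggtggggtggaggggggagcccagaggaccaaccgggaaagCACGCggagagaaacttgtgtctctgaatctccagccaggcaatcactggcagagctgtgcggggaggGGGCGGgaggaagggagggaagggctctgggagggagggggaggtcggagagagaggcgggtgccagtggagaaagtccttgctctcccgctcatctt
Nrp2: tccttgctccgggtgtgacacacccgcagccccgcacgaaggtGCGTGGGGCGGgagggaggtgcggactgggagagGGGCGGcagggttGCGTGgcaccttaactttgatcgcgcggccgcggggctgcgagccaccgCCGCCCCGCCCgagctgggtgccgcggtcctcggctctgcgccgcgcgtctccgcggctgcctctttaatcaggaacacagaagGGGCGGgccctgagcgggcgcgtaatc

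All 3 windows held both GCGTG and GGGCGG. Sema7a had 1 match to GCGTG and 2 to GGGCGG, Nrp1 had 1 of each, and Nrp2 had 2 of GCGTG and 5 of GGGCGG, of which 2 overlap each other. None of the 3 windows held the letters of the NF-kB motif, of TGANTCA or of ACGTG. Over all 32851 RefSeq windows of this length, 28.2% held GCGTG, 32.7% GGGCGG, 16.6% ACGTG, 7.25% the NF-kB motif and 6.75% TGANTCA. A window was found for 26 of the 32 member genes, 37 windows in all, of which 13 held GCGTG, 27 GGGCGG, 7 ACGTG, 3 the NF-kB motif and 3 TGANTCA. These matches describe the letters and show no binding.

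Among the secreted class 3 semaphorins, 0 of 7 passed by limma's adjusted p, and 2 of 7 had an unadjusted p under 0.05, as 21.5% of all genes did. Sema3f, whose product binds neuropilin 2 and inhibits tumour vessels and spread in mouse models, was the nearest to the threshold. It read 8.43 and 8.41 on the shLDHA arrays and 8.06 and 8.04 on the scramble arrays, with replicates close to each other and no overlap between groups. The log2 change was 0.36 (95% interval 0.17 to 0.56, adjusted p = 0.0524), and it passed in 4 of 13 alternative settings. Sema3e, whose product binds plexin D1 without a neuropilin, read 8.77 and 8.60 in shLDHA and 8.79 and 8.72 in scramble, with overlapping groups (log2 change -0.07, 95% interval -0.30 to 0.16). The other 5, Sema3a, Sema3b, Sema3c, Sema3d and Sema3g, had both group means at or below the background level. Of these Sema3c, singled out after its values were seen, read 4.04 and 4.25 in shLDHA and 3.11 and 3.68 in scramble (log2 change 0.75, adjusted p = 0.0702), and the scramble replicates differed by more than the 2 groups' nearest arrays. Its change was 0.47 (adjusted p = 0.137) without scramble replicate 1 and 1.03 (adjusted p = 0.00996) without scramble replicate 2.

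The transmembrane class 4 held both semaphorins that were higher in shLDHA past the threshold. Sema4d, which encodes the plexin B1 ligand known from lymphocytes as CD100, read 6.28 and 6.37 on the shLDHA arrays and 5.77 and 5.91 on the scramble arrays. The groups did not overlap, and the log2 change was 0.49 (SE 0.09, 95% interval 0.26 to 0.71, limma adjusted p = 0.0328). Sema4c, which encodes a plexin B2 ligand, read 5.68 and 5.96 in shLDHA and 5.29 and 5.26 in scramble, without overlap (log2 change 0.54, SE 0.11, adjusted p = 0.0412). Sema4b went the other way without passing, with 6.45 and 6.62 in shLDHA and 6.88 and 6.89 in scramble (log2 change -0.35, 95% interval -0.58 to -0.13, adjusted p = 0.0844). Sema4a, Sema4f and Sema4g stayed below the background level.

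Their receptors are the B plexins, and 0 of 3 passed. Plxnb2 read 8.85 and 8.87 on the shLDHA arrays and 8.47 and 8.61 on the scramble arrays, higher in shLDHA without overlap but short of the threshold (log2 change 0.32, 95% interval 0.11 to 0.54, limma adjusted p = 0.0947). Plxnb1 read 5.51 and 4.97 in shLDHA and 4.98 and 5.19 in scramble, and the groups overlapped (log2 change 0.15, 95% interval -0.28 to 0.58). Its dimmer probe set changed by -0.16 (95% interval -0.40 to 0.07). The receptor tyrosine kinase genes Met and Erbb2, whose products associate with B plexins, changed by -0.23 (adjusted p = 0.229) and 0.27 (adjusted p = 0.158).

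**Figure D2:**
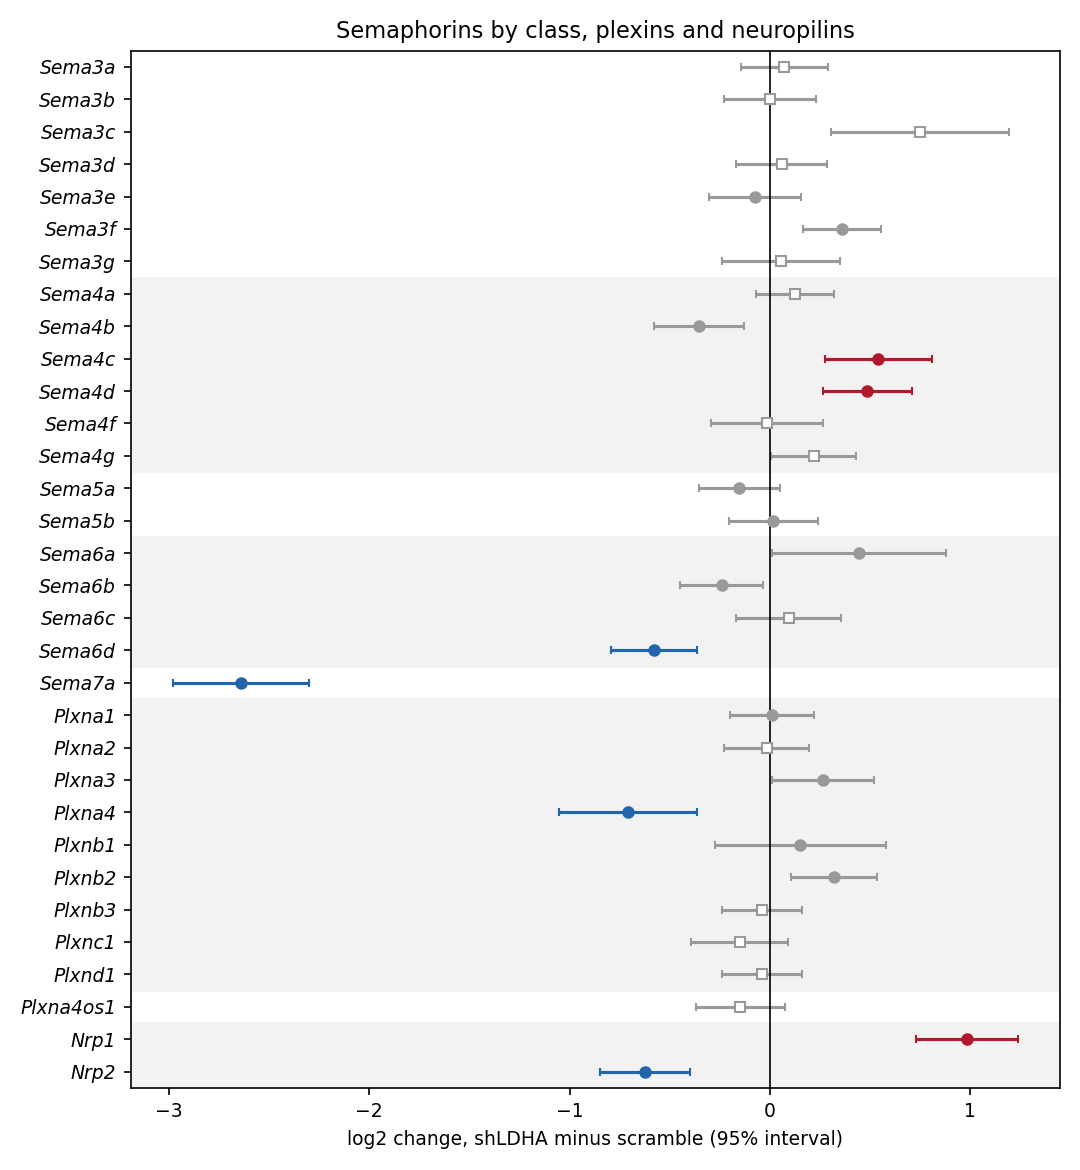
Log2 change (shLDHA minus scramble) of all 32 members with 95% intervals from limma, ordered by semaphorin class, then plexins, Plxna4os1 and neuropilins. Red and blue mark genes higher and lower past the threshold, open squares genes at or below the background level in both groups; Sema7a at -2.64 lies furthest from 0, and Nrp1 and Nrp2 lie on opposite sides.

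Class 6 semaphorins are transmembrane ligands of A plexins, and a member of each side was lower in shLDHA. Sema6d read 4.13 and 4.00 on the shLDHA arrays and 4.65 and 4.64 on the scramble arrays. It fell by 0.58 on the log2 scale (SE 0.09, 95% interval -0.79 to -0.36, limma adjusted p = 0.0171). Both shLDHA arrays were below the background level, so this size may understate the change. Plxna4, which encodes a receptor of class 6 semaphorins and a neuropilin partner for semaphorin 3A, read 4.86 and 5.14 in shLDHA and 5.87 and 5.54 in scramble. The groups did not overlap, although the replicates within each group differed nearly as much as the nearest arrays across groups. It fell by 0.71 (SE 0.14, 95% interval -1.05 to -0.36, adjusted p = 0.0400).

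The remaining class 6 and A plexin genes did not pass. Sema6b read 6.53 and 6.58 in shLDHA and 6.75 and 6.84 in scramble (log2 change -0.24, 95% interval -0.45 to -0.03). Sema6a read 4.77 and 4.21 in shLDHA and 4.13 and 3.96 in scramble, and its change of 0.45 had a wide interval of 0.01 to 0.88. It rested on shLDHA replicate 1, with a change of 0.17 without it and of 0.73 without shLDHA replicate 2. Plxna1, the usual signalling partner of neuropilin 1, averaged 6.96 ± 0.03 in shLDHA and 6.94 ± 0.08 in scramble (SD, n = 2 each), with both shLDHA arrays between the scramble arrays. Its log2 change was 0.01, with an interval of -0.20 to 0.22. A second Plxna1 probe set near the background level changed by -0.24 (95% interval -0.61 to 0.13). Plxna3 read 5.28 and 5.41 in shLDHA and 4.97 and 5.18 in scramble (log2 change 0.27, 95% interval 0.01 to 0.52, adjusted p = 0.213). Sema6c, Plxna2, Plxnb3, Plxnd1 and Plxna4os1 were at or below the background level in both groups.

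Class 5 semaphorins carry thrombospondin repeats, and 0 of 2 passed by limma's test, also at an unadjusted p under 0.05. Sema5a read 4.67 and 4.61 in shLDHA and 4.76 and 4.82 in scramble (log2 change -0.15, 95% interval -0.35 to 0.05). Sema5b read 4.81 and 4.95 in shLDHA and 4.90 and 4.83 in scramble, with overlapping groups (log2 change 0.02, 95% interval -0.20 to 0.24). Over all 14 members at or below the background level, log2 changes ran from -0.15 to 0.75 and 0 passed, while 2 (14.3%) had an unadjusted p under 0.05, below the 21.5% of all genes.

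The calls differed in how far they rested on single arrays. Sema7a and Nrp1 passed with each of the 4 arrays left out, with log2 changes of -2.85 to -2.43 and 0.87 to 1.10. Nrp2 lost the call without shLDHA replicate 2 (limma adjusted p = 0.0830) or scramble replicate 2 (0.0614). Sema4c lost it without shLDHA replicate 2 (0.137), scramble replicate 1 (0.104) or scramble replicate 2 (0.122). Plxna4 kept it only without scramble replicate 2, and had 0.151 without shLDHA replicate 1, 0.0780 without shLDHA replicate 2 and 0.113 without scramble replicate 1. Sema4d and Sema6d lost it whichever array was left out, with adjusted p of 0.0632 to 0.141 and 0.0539 to 0.0886. The direction of all 7 genes could not turn in such a fit, because both arrays of one group lay beyond both of the other. When all 41345 probe sets were tested, Sema7a alone of the 7 passed (adjusted p = 0.0306), and Nrp1 had an adjusted p of 0.0665.

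**Figure D3:**
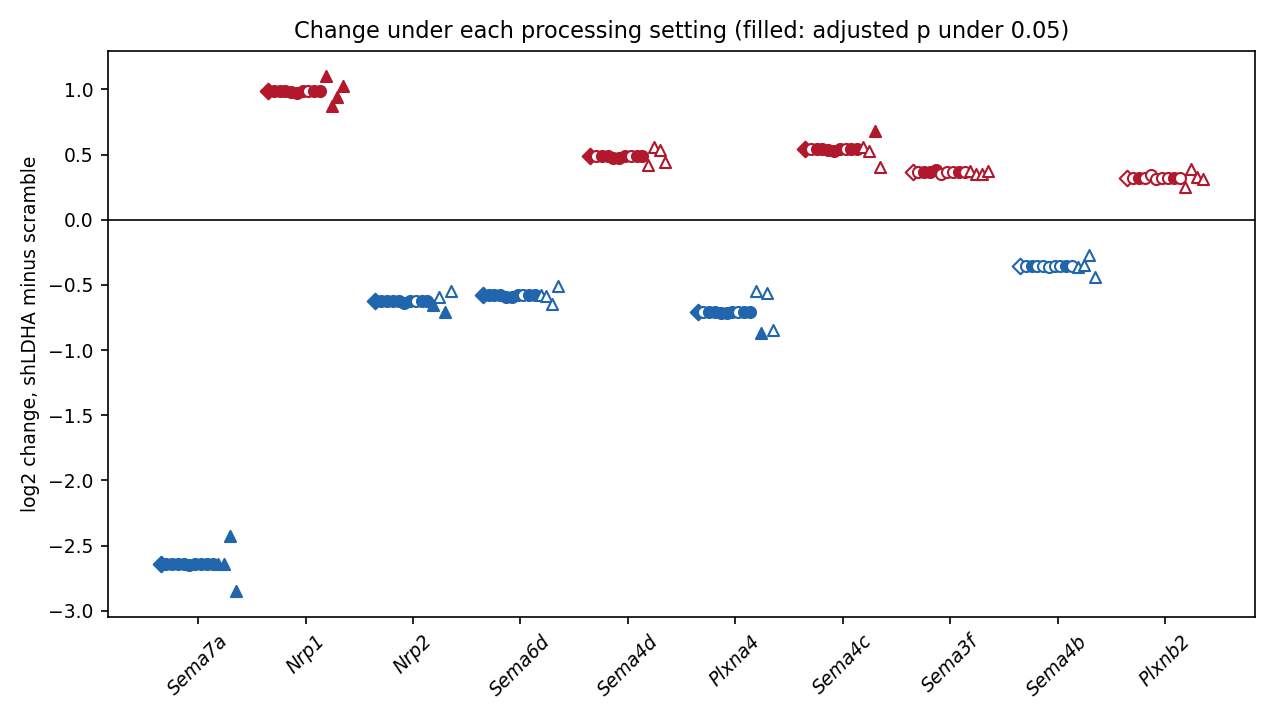
Log2 change (shLDHA minus scramble) of the 7 called members and the 3 nearest to the threshold above the background level, in the fit of all 4 arrays (diamond), in 9 other settings with all arrays (circles) and with 1 array left out (triangles). Filled marks passed at an adjusted p under 0.05, and Sema7a is filled in all settings. No gene crosses 0. Leaving out an array could not make one cross, because both arrays of one group lie beyond both of the other.

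Genes listed as effectors inside the cell below plexins had calls in both directions. Of 35 tested effector genes, 4 were lower and 2 higher in shLDHA, 17.1% in all against 6.36% of all genes. The median log2 change was -0.12, against 0.01 over all genes. Above the background level lay 88.6% of the effectors and 48.5% of all genes, and the part of expression level in the share called was not tested. The list was chosen with earlier results of these data known. Mical2, of the flavoenzyme family that oxidises actin filaments, read 5.17 and 5.25 on the shLDHA arrays and 6.26 and 6.19 on the scramble arrays. It fell by 1.01 on the log2 scale (SE 0.09, limma adjusted p = 0.00264), passed with each array left out and was the effector with the smallest p. The related Mical1, below the background level in both groups, changed by -0.21 and Mical3 by 0.25, and neither passed. Rnd1, whose product binds the cytoplasmic part of plexins, read 5.73 and 5.92 in shLDHA and 6.64 and 6.50 in scramble (log2 change -0.74, adjusted p = 0.0131).

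Rnd3, a relative of Rnd1, changed by -0.58 (adjusted p = 0.0300), and Limk1, the kinase that phosphorylates the actin-severing protein cofilin, by -0.55 (adjusted p = 0.0159). Sh3bp1, a GTPase-activating protein for Rac that acts below plexin D1 in endothelial cells, read 7.86 and 8.03 in shLDHA and 7.23 and 7.28 in scramble (log2 change 0.69, adjusted p = 0.0121). Mras, a Ras family GTPase, changed by 0.46 (adjusted p = 0.0453). The other 29 did not pass. Without shLDHA replicate 1 Rnd1 had an adjusted p of 0.0668, without shLDHA replicate 2 Sh3bp1 had one of 0.0668, and Rnd3, Limk1 and Mras lost the call with any array left out.

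Among 16 co-receptors and other receptors, 1 was lower and 1 higher, 12.5% in all against 6.36% of all genes. Flt1, which encodes VEGF receptor 1, read 5.44 and 5.42 on the shLDHA arrays and 6.03 and 6.12 on the scramble arrays (log2 change -0.65, SE 0.09, limma adjusted p = 0.0107). Sdc3, a cell-surface heparan sulphate proteoglycan, read 6.85 and 7.11 in shLDHA and 6.37 and 6.48 in scramble (log2 change 0.55, adjusted p = 0.0403). Flt1 lost the call without shLDHA replicate 1 (0.0576) or shLDHA replicate 2 (0.0659), and Sdc3 with any array left out. Of 8 proteases that cleave semaphorins or process their precursors, 0 passed and 1 (12.5%) had an unadjusted p under 0.05, against 21.5% of all genes. That one was Mmp14, a membrane-anchored metalloproteinase that can release semaphorin 4D, with 9.21 and 9.23 in shLDHA and 8.83 and 8.91 in scramble (log2 change 0.35, adjusted p = 0.0653).

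Other guidance families were set beside these genes as a description, with no test of the difference. Of 21 ephrins and Eph receptors 2 (9.52%) passed, against 6.36% of all genes. Ephb3 was higher (log2 change 0.52, limma adjusted p = 0.0231) and Epha2 lower (-0.46, adjusted p = 0.0328). Of 12 netrins and netrin receptors 1 (8.33%) passed. This was Ntn4, which was higher (0.59, adjusted p = 0.0161), with both group means below the background level. Ephb3 and Epha2 lost the call with any array left out, and Ntn4 with 3 of the 4 arrays. Of 7 slit and robo genes 0 passed, and all 7 were at or below the background level. An unadjusted p under 0.05 was found for 2 (28.6%), against 21.5% of all genes. Over the 99 tested genes of the 6 lists, 5 were higher and 6 lower, 11.1% in all against 6.36% of all genes. Above the background level lay 63.6% of these 99 genes and 48.5% of all genes.

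**Figure D4:**
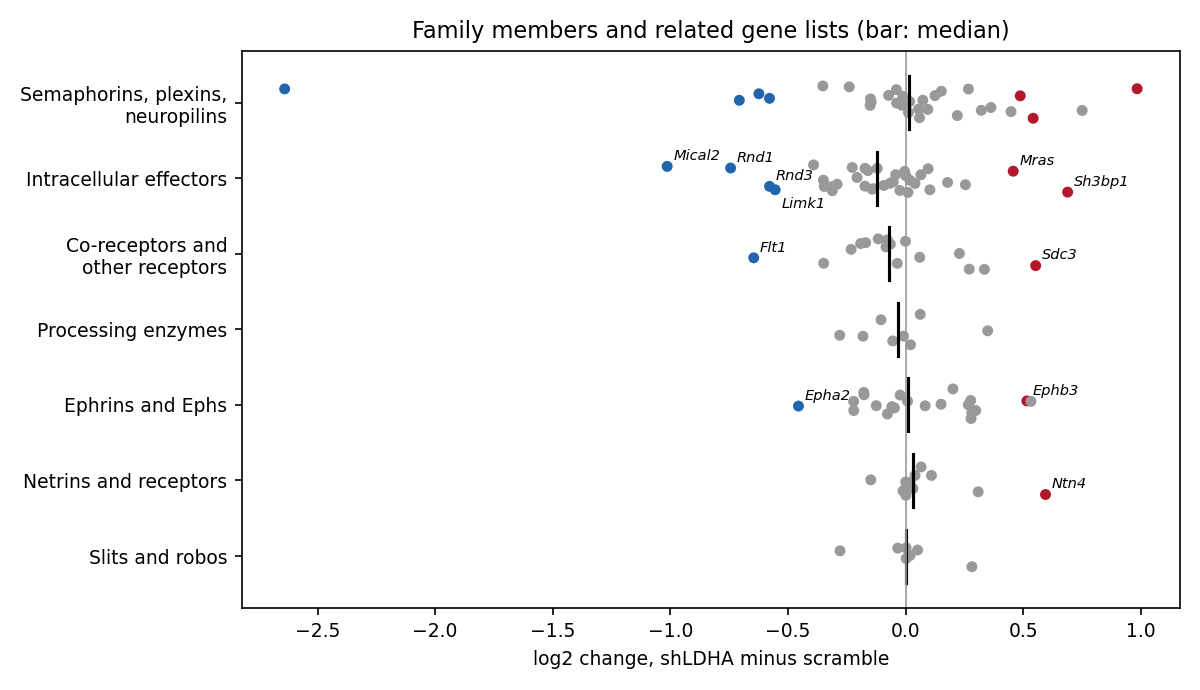
Log2 change (shLDHA minus scramble) of the 32 members, the effector, receptor and protease lists, and 3 other guidance families, 1 point per gene and a black bar at each list's median. Red and blue mark genes higher and lower past the threshold; the members spread from -2.64 to 0.98, and the lists' medians lie between -0.12 and 0.03.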

How the data were processed

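RNA of 4 samples was measured on whole-transcript Affymetrix arrays. The deposited values are on the log2 scale and, per the submitters' processing notes, were produced by RMA under R 3.4.0; sources used here do not state the annotation version. Scanner files were not used here, and 0 columns of values were left out. Titles gave each sample's group and replicate number, because LDHA stands in the cell type label of all 4 samples.

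Of 41345 probe sets, 23521 had 1 gene symbol in a platform annotation table, 1814 several and 16010 none. The first kind entered, with the brightest probe set of a gene kept, which gave 22180 genes without a filter on dim genes. All 32 member symbols matched a RefSeq table of assembly GRCm38.p6 by gene identifier. Array signals near background are compressed, so the change of a dim gene may be understated.

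The comparison of shLDHA with scramble used limma 3.58.1 (R 4.3.3; lmFit and eBayes without covariates), two-sided, with Benjamini-Hochberg adjustment over all genes tested. The fit had 2 residual and 4.52 prior degrees of freedom and a median SE of 0.09. Arrays have no read depth. Code was tested on simulated data. The background level is the percentile 95 of olfactory receptor genes.

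Members and lists were chosen with earlier results of these data known. Named with values were Ldha, members past the threshold or above the background level, and list genes past the threshold. Sema3c, Plxnc1, Itgb1, Itga1, Met, Erbb2, Mmp14, Cd68, Cldn7, Cldn3, Epcam and Krt8 were named besides this rule, after their values were seen. Mical1 and Mical3 were also named besides it, and their calls were not followed over the alternative settings. The 13 alternative settings were the replicate number as a block, 2 filters on dim genes, quantile normalization again, centring on the median, the mean of a gene's probe sets, every probe set, eBayes with a trend or robust, and each array left out; a threshold of 0.1 was also tried. Figures used matplotlib 3.10.9.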

Additional observations from a re-analysis of the deposited data

How the results depend on the processing

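The 7 members called became 11 with a filter at the median level, 11 with a trend in eBayes, 11 at a threshold of 0.1, 1 with every probe set tested (Sema7a, adjusted p = 0.0306) and 2 to 4 with an array left out. The 11 called pathway genes became 23, 22, 20, 1 and 2 to 5 under the same settings and 7 with the replicate block, and the 1410 genes called in all became 2836, 2806, 2391, 128, 370 to 636 and 838. Testing every probe set raises the number of tests to 41345 and also refits limma's prior variance over all of them. For Nrp1 the SE was then 0.1151 instead of 0.1055. Its unadjusted limma p was 0.000504 instead of 5.26e-05. The part of each in the lost calls was not tested. Leaving out an array removes 1 of 2 residual degrees of freedom. Directions turned for genes that did not pass: with the mean of probe sets Plxna1 changed by -0.11 and Plxnb1 by -0.0052, and with an array left out the ranges were -0.043 to 0.067 for Plxna1, -0.12 to 0.42 for Plxnb1, -0.057 to 0.091 for Sema5b and -0.16 to 0.013 for Sema3e. Of the 279 values of the 20 named members over these settings and the threshold of 0.1, 230 kept direction and side of the threshold, 25 lost the call, 16 gained it and 8 turned. The replicate block called 5 members, Sema7a, Nrp1, Nrp2, Sema6d and Sema3c (limma adjusted p = 0.0335), and gave Sema4c 0.0646, Sema4d 0.0528 and Plxna4 0.0764. The labels give no pairing beyond the replicate number. Whether same-numbered arrays share a culture or a batch is not stated. Deviations of same-numbered arrays correlated at -0.03 across genes, a value over all genes that cannot settle this for single genes. The 95% intervals and the background level limit what 2 arrays a group can show for the 14 dim members.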
